A study of Mus musculus with 14 samples.

Results

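The genes described here are 54 members of the WNT pathway, taken by name from a list of pathway roles, out of 21887 protein-coding mouse genes with a position on an assembled chromosome. They comprise 17 genes for WNT ligands, 13 for receptors (Fzd1 to Fzd10, Lrp5, Lrp6 and Ror2), 7 for R-spondins and their LGR receptors, 9 for secreted inhibitors, 5 for nuclear factors and 3 for feedback targets. A peak was counted for a gene when it overlapped the gene's RefSeq span, extended by 1 kb at either end, by at least 1 bp. All 54 were found in the RefSeq table of the mouse build GRCm38.p6. The material was ATDC5, a mouse line derived from a teratocarcinoma that forms cartilage nodules, used without genetic modification, per the labels. Day 0 stood for undifferentiated cells kept by passaging, and days 3 and 10 for cells seeded as dense droplets and differentiated with bGP (β-glycerophosphate) and ascorbate-2-phosphate. Immunoprecipitation targeted H3K4me3, the trimethylated lysine of histone H3 found at active or poised promoters, or RUNX2, a transcription factor of bone and of maturing cartilage. Each antibody and day had 2 libraries, which gave 12 peak lists, and since the labels do not tie them to separate cultures, their spread may be only technical.

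WNT ligands are lipid-modified secreted proteins that bind Frizzled receptors and the co-receptors LRP5 and LRP6. In the canonical branch this stabilises β-catenin, which enters the nucleus and acts with TCF and LEF factors on target genes, among them Axin2 and the Naked cuticle genes that dampen the signal again. R-spondins, acting through LGR receptors, keep Frizzled receptors on the cell surface, while the DKK, SFRP and WIF proteins block ligands or co-receptors outside the cell. In the growth plate, canonical WNT signalling is known to oppose early chondrocyte commitment and to promote hypertrophy, and Wnt5a and Wnt5b are known for β-catenin-independent signalling in cartilage.

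For H3K4me3, replicate 1 gave 13765, 28653 and 15219 peaks over the 3 days and replicate 2 gave 20863, 26781 and 29022, so that replicate 1 was much the shorter list on days 0 and 10. For RUNX2, day 3 had 19319 and 16859 peaks and the other 4 lists 97 to 108. Read numbers were unknown, so a gene without a peak had none called at the depth of its library. As a check of the label, 8 of 9 chondrocyte markers had an H3K4me3 peak in both libraries on day 3 and on day 10. Over all genes these shares were 61.6% and 56.8%. Sox9, Sox5, Sox6 and Col2a1 had a peak in all 6 lists, as did 51.9% of all genes. None of the 5 skeletal muscle markers had a peak in any list, which held for 32.1% of all genes. Other lists of markers were not empty: on day 3, peaks in both libraries were found at 4 of 4 blood markers, 3 of 4 adipocyte, 3 of 4 neuronal, 2 of 4 epithelial and 1 of 4 endothelial ones. The blood markers went from 0 of 4 on day 0 to 2 of 4 on day 10, and the part of other cells in the results below was not tested.

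H3K4me3 was found at 27 of the 54 WNT genes in both libraries on day 0, at 47 on day 3 and at 36 on day 10. Among all protein-coding genes, 52.2%, 61.6% and 56.8% were marked in this way on the 3 days. The WNT genes were therefore near the background on day 0 (50.0%) and above it on day 3 (87.0%) and day 10 (66.7%). Their spans are longer than usual, with a median of 32500 bp against 17169 bp for all genes, which gives them wider windows. Of the roles, the ligands changed by the largest number of genes, from 3 to 16 and back to 6 of 17. Receptors (11, 12 and 12 of 13), nuclear factors (5 of 5 on each day) and feedback targets (3 of 3 on each day) changed by at most 1 gene. R-spondin and LGR genes went from 2 to 5 and 4 of 7, and secreted inhibitors from 3 to 6 and 6 of 9.

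The length of the lists moved with this pattern in replicate 1. The replicate 2 list was longer on day 10 (29022 peaks) than on day 3 (26781). Library by library, a peak was found at 27 and 44 members on day 0 (52.4% and 59.4% of all genes), at 48 and 47 on day 3 (64.2% and 63.2%) and at 36 and 47 on day 10 (56.9% and 64.3%). In replicate 1 the ligands with a peak numbered 3, 16 and 6 on days 0, 3 and 10, and in replicate 2 they numbered 15, 16 and 13. On day 0, 17 members (31.5%) had a peak in replicate 2 and none in replicate 1, while 7.24% of all genes did. On day 10 this held for 11 members (20.4%) and 7.58% of all genes. With equal numbers of top peaks in each list (13765 by −log10 q), 27, 31 and 31 members were marked on the 3 days, beside 50.2%, 53.4% and 53.1% of all genes. By role these were 3, 5 and 5 ligands, 2, 4 and 3 R-spondin and LGR genes, and 3 secreted inhibitors on each day. Without replicate 1 of day 0, that day had 4 R-spondin and LGR genes and 5 secreted inhibitors marked, in place of 2 and 3. The higher ligand count of day 3 thus consisted largely of low-ranked peaks, and depth and day cannot be told apart for them. Wnt1, Wnt2, Wnt3 and Wnt9b had no peak in replicate 2 of day 10 either, the longest H3K4me3 list. Their strongest day 3 peaks ranked at 59.7 to 90.6% of the lists. The cut to 13765 top peaks removed all of these day 3 peaks, so it could not call any of these genes lost. Whether depth accounts for their absence on day 10 was not tested.

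Between days, a mark was called gained where a peak was missing from both libraries first and present in both later, and lost in the opposite case. From day 0 to day 3, 3 of 54 members gained H3K4me3 (Wnt2, Sfrp4 and Lgr6) and 0 lost it, against 3.2% of all genes gaining and 0.00914% losing it (0.0175% of those with a mark to lose). Of the genes that could gain a peak, 3 of 10 members and 7.92% of all genes did so. From day 3 to day 10, 1 member gained a peak (Dkk1; background 0.0503%, and 0.147% of genes without a day 3 peak) and 4 lost theirs (Wnt1, Wnt2, Wnt3 and Wnt9b; background 0.58%, and 0.942% of marked genes). From day 0 to day 10, Sfrp4, Lgr6 and Dkk1 gained a peak (background 1.15%, and 2.85% of genes that could) and 0 members lost one (background 0.00457%, and 0.00876% of marked genes). With 2 libraries a day no exact permutation test could pass 0.05, so these are descriptions of the lists. Each of these 7 genes is described below under its role.

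A set of members was marked throughout: 27 of 54 (50.0%) had an H3K4me3 peak in all 6 lists, beside 51.9% of all genes. At the other end, Fzd10, Rspo1 and Sfrp5 had no peak of either antibody in any of the 12 lists, which held for 32.1% of all genes. Wnt16 and Rspo4 had a single H3K4me3 peak each, in replicate 2 of day 10 (fold enrichments 5.07 and 4.67). Fold enrichment is the authors' ratio of signal at the summit to local background, and its size can be read only within a list.

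**Figure D1:**
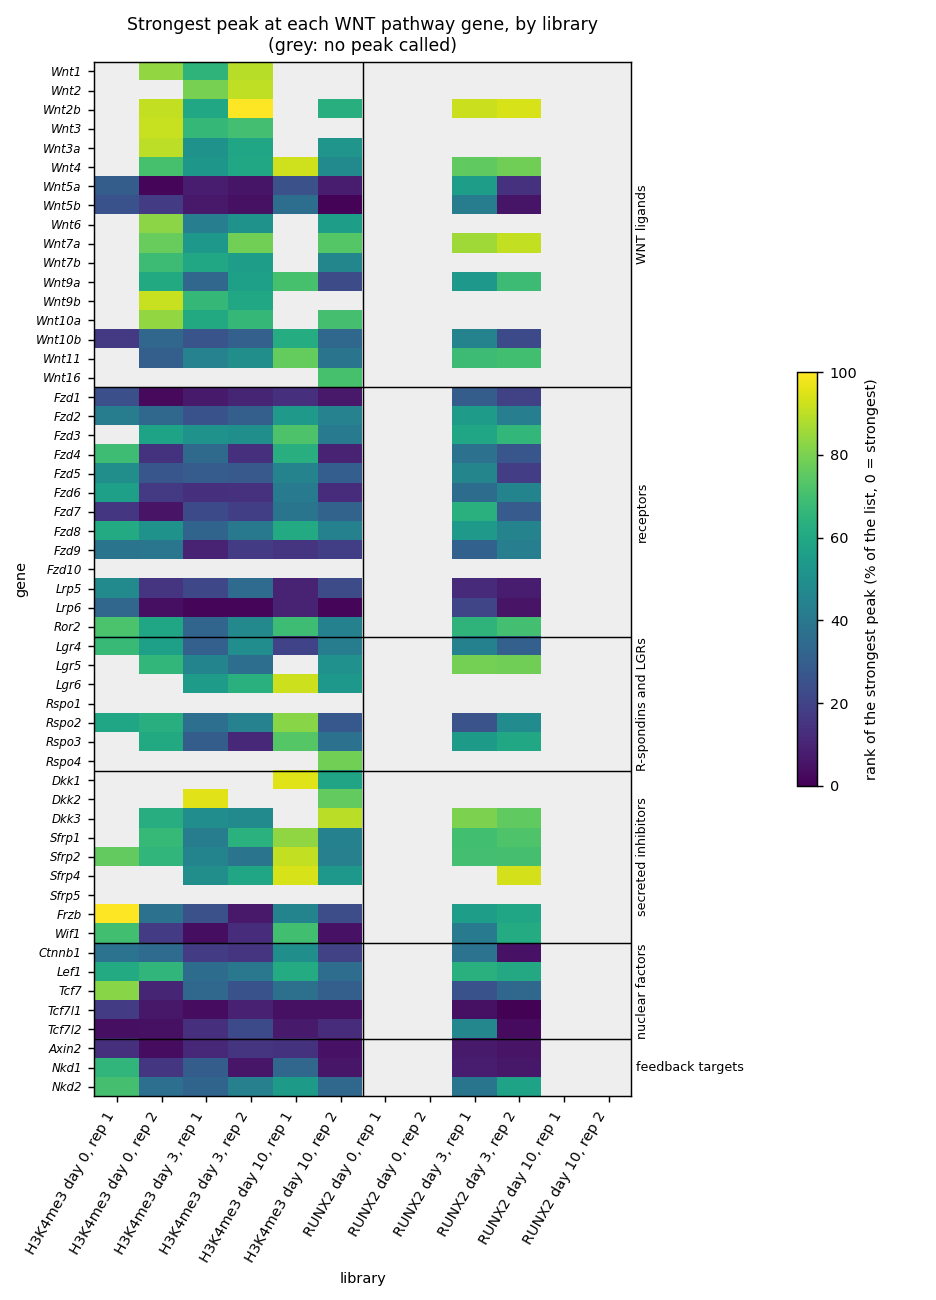
Rank of the strongest peak of each of the 54 genes (rows, ordered by role) in each of the 12 lists (columns), as percent of the list with 0 the strongest; grey means that no peak was called. Nuclear factors and feedback targets are filled in all 6 H3K4me3 columns, ligands mainly in day 3 and in replicate 2 of days 0 and 10, and the RUNX2 columns of days 0 and 10 are empty.

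Among the ligands, Wnt5a, Wnt5b and Wnt10b had H3K4me3 in all 6 lists, and these were the only ligands marked on day 0 in both libraries. At Wnt5a, a ligand of the β-catenin-independent branch, fold enrichment was 6.32 and 11.8 on day 0, 28.6 and 12.3 on day 3, then 13.6 and 12.4 on day 10 (replicate 1, then 2). The day 3 mark formed separate stretches inside the gene on chromosome 14, from 28504110 to 28508149 and from 28509205 to 28512031 in replicate 1, and RUNX2 peaks lay on both. Wnt5b, its close relative, had 7.24 and 9.26, 28.8 and 13.3, and 13.9 and 15.4. Its strongest day 3 peak (chromosome 6, 119478391 to 119483259 in replicate 1) had its summit at −11920 bp from the nearest annotated start although inside the RefSeq span, and this H3K4me3 summit was nearest to Wnt5b in both day 3 libraries. RUNX2 had its strongest summit there at 119480130 in both libraries, nearest to the gene Fbxl14, and a weaker one at 119479276 in replicate 1, nearest to Wnt5b, so which gene the stretch belongs to was not settled. A weaker pair of peaks lay at an annotated Wnt5b start, at −122 and 686 bp.

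These peaks were also wide. On day 3, Wnt5a had 6867 and 6451 covered bases and Wnt5b 6979 and 5584, and only 1.33% and 1.68% of marked genes had more (mean of both libraries). The bases of Wnt5b include the stretch whose gene was not settled (119478475 to 119482619 in both libraries). That stretch was longer than the one at an annotated Wnt5b start (119543369 to 119544807). The ligands as a group were narrow, with medians of 1429 and 1294 bases against 2040 and 1756 for all genes with a peak.

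Wnt10b, a ligand known for favouring bone over fat formation, had fold enrichments of 8.41 and 8.8 on day 0, 22.7 and 9.66 on day 3, then 10.5 and 11.0 on day 10. RUNX2 peaks were present there on day 3 (4.97 and 14.1). Its sequence is shown because, of the member promoters under RUNX2, it had the most matches to TGNGGT, used here as a loose form of the RUNX motif. None of these was the narrower TGTGGT. The 250 bases before the start (RefSeq, GRCm38.p6, chr15:98778151-98778400, minus strand, 5′ to 3′) hold the matches in capitals, which begin at −233, −226, −58 and −47 from the start and of which the one at −226 is on the other strand.
Wnt10b: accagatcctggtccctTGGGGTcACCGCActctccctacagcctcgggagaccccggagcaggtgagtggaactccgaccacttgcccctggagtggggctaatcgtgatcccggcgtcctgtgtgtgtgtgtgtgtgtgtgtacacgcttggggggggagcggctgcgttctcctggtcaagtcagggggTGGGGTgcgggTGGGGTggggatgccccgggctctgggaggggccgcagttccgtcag
Its neighbour Wnt1, which starts 11650 bp beyond the end of Wnt10b, had a different history. Wnt1 peaks were weak: fold enrichment was 4.9 in replicate 2 of day 0, 6.18 and 4.18 on day 3, and none was called in the other lists. The peaks of both day 3 libraries overlapped at chromosome 15, 98791147 to 98791479 (summit 1346 bp after the start in replicate 2), and not at its start-site window.

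Wnt2, a ligand of lung and vessel development, was the ligand gained on day 3 and lost on day 10. Its 2 peaks, with fold enrichments of 4.65 and 4.07, ranked at 79.3% and 90.6% of their lists and did not overlap each other (chromosome 6, 18030221 to 18030434 in replicate 1 and 18030631 to 18031039 in replicate 2). They flank the start on either side, with summits at 83 and −466 bp. The 250 bases before the start are shown for that reason (RefSeq, GRCm38.p6, chr6:18030446-18030695, minus strand); neither TGNGGT nor the TCF/LEF motif CTTTGA was found in them on either strand, so none is in capitals.
Wnt2: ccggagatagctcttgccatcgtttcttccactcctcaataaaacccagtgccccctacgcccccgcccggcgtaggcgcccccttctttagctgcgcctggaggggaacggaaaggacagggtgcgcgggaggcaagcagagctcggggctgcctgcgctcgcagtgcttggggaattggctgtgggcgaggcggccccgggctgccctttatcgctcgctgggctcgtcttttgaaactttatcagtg
Wnt3 and Wnt9b are neighbours on chromosome 11 whose spans overlap (a gap of −1098 bp), so that they shared peaks and are not independent. Wnt3, a canonical ligand, had fold enrichments of 4.37 in replicate 2 of day 0 and of 5.6 and 5.35 on day 3. At Wnt9b, which is known from kidney and facial development, the values were 4.37, 5.6 and 6.95, the first pair being the shared peaks. The Wnt9b peaks of the day 3 libraries did not overlap each other, whereas at Wnt3 those at 103810156 to 103810560 did. When overlapping peaks were required, 2 members were lost from day 3 to day 10 instead of 4.

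The other ligands had at least 1 library without a peak. Wnt6, a ligand of epithelial and mesenchymal signalling, had fold enrichments of 14.7 and 8.47 on day 3, 4.99 in replicate 2 of day 0 and 6.99 in replicate 2 of day 10. Its day 3 peak covered the start site (chromosome 1, 74771365 to 74773236 in replicate 1) and carried no RUNX2 peak. Wnt10a, 6696 bp away, had day 3 values of 6.4 and 4.96. These peaks (74803026 to 74803779 in replicate 1) lay near the far end of the gene. Wnt3a had 9.98 and 6.88 on day 3, at a site deep inside the gene (59263824 to 59264546 on chromosome 11, summit 26520 bp after the start) that was also called in replicate 2 of day 10 with 9.03. Wnt7b had 7.13 and 6.64 on day 3, 6.49 in replicate 2 of day 0 and 10.9 in replicate 2 of day 10. Its stretch at the gene end spanned bases 85580581 to 85582042 of chromosome 15 in replicate 1 of day 3. Replicate 1 of days 0 and 10 held no peak at any of these 4 genes, and neither RUNX2 library of day 3 had one there.

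Wnt4, Wnt9a and Wnt11, each known from skeletal development, were marked on days 3 and 10 in both libraries and on day 0 in replicate 2. The strongest values were 20.0 for Wnt9a in replicate 1 of day 3, 13.8 for Wnt11 in the same list and 11.2 for Wnt4 in replicate 2 of day 10. All 3 had RUNX2 peaks in both day 3 libraries, with fold enrichments of 7.15 and 7.02, 5.8 and 9.41, and 5.7 and 7.34. Wnt2b and Wnt7a had H3K4me3 in both libraries of day 3 only (7.13 and 3.09 at Wnt2b, 8.73 and 4.33 at Wnt7a). They nevertheless had RUNX2 peaks, which were the lowest-ranked among the members, at 93% and 88.3% of the lists on average.

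The receptors were the most evenly marked of the larger groups. Of the Frizzled and co-receptor genes, 11 of 13 had H3K4me3 in all 6 lists, and Fzd3, a receptor of axon guidance and planar polarity, lacked it only in replicate 1 of day 0. Fold enrichment over the 12 marked receptor genes on day 3 ran from 9.98 to 27.9 (replicate 1) and from 7.43 to 16.0 (replicate 2). All 12 also carried RUNX2 on day 3, as did 94.2% of all genes with the mark on that day. Their RUNX2 fold enrichments were 3.16 to 7.98 in replicate 1 and 7.84 to 19.0 in replicate 2. The remaining receptor gene was Fzd10, without a peak.

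The co-receptor genes were among the 5 members with the best RUNX2 ranks. At Lrp5, a regulator of bone mass, H3K4me3 fold enrichment was 5.71 and 9.96 on day 0, 21.7 and 8.85 on day 3, then 17.5 and 11.5 on day 10. RUNX2 reached 7.41 and 15.1 on day 3, at chromosome 19, 3685323 to 3686857 in replicate 1, a peak that crossed one end of the gene (3686585) and had its summit 247 bp inside it. At Lrp6 the H3K4me3 values were 5.73 and 9.39, 27.9 and 12.4, and 15.3 and 13.7, and its day 3 peaks had the best H3K4me3 rank of all members, 1.63% on average. RUNX2 there had 5.58 and 14.7 (chromosome 6, 134565556 to 134567675). Fzd4, the receptor of retinal vessel growth, was also high, with RUNX2 at 7.65 and 19.0, but its strongest peaks lay nearest to Tmem135 in all 8 lists with a peak.

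Fzd9 had a short mark on day 0 and a longer one later. Its covered bases were 979 and 871 on day 0, 3634 and 2603 on day 3, then 3046 and 2322 on day 10, so that all 4 later libraries lay above both of day 0. The ratio of the means was 3.37 from day 0 to day 3, where the median over all genes marked in all 6 lists was 1.43.

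Of the R-spondin and LGR genes, Lgr4 and Rspo2 were marked in all 6 lists. Lgr4, the broadly expressed R-spondin receptor, had fold enrichments of 4.7 and 5.73 on day 0, 20.4 and 6.67 on day 3, then 17.5 and 8.25 on day 10. Rspo2, an R-spondin needed for limb development, had 5.2 and 5.68, 17 and 7.69, and 5.29 and 11.9. Rspo3, known for vessel development, was missed only in replicate 1 of day 0 and had 21.4 and 14.7 on day 3. Lgr5, a stem cell receptor, was found in both day 3 libraries (13.3 and 11.6) and in replicate 2 of days 0 and 10 (6.44 and 8.53). These 4 genes had RUNX2 in both day 3 libraries, with fold enrichments between 4.72 and 9.53 in replicate 1.

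Lgr6, an R-spondin receptor of osteoprogenitors and skin, differed from them. No library of day 0 had a peak there, and the fold enrichments were 8.35 and 5.29 on day 3, then 4.34 and 7.14 on day 10. The peaks lay on chromosome 1 at 135104736 to 135105737 and 135105290 to 135105771 on day 3, and at 135104663 to 135105222 and 135104928 to 135105656 on day 10, with summits at −253, −151, 123 and −82 bp from an annotated start. All 4 later libraries thus had a peak near the start, of middling to low rank (53.2 to 92.3% of the list). RUNX2 was not called there in any list. Lgr6 is shown because it gained the mark without a RUNX2 peak (RefSeq, GRCm38.p6, chr1:135105277-135105526, minus strand). The capitals are matches to the loose motif TGNGGT on the other strand, beginning at −232 and −129. Both read ACCCCA, and neither is a match to the narrower TGTGGT.
Lgr6: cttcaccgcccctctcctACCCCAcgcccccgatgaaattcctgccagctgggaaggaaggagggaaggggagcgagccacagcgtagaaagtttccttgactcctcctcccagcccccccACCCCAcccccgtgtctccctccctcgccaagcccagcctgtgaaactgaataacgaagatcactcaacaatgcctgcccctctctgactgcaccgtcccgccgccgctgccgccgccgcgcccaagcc

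The secreted inhibitors fell into several histories. Frzb, also called Sfrp3, Wif1 and Sfrp2 were marked in all 6 lists, Sfrp1 in all but replicate 1 of day 0, Sfrp4 on days 3 and 10, Dkk3 on day 3 and in replicate 2 of days 0 and 10, and Dkk1 on day 10. Dkk2, encoding a LRP6 ligand, had peaks in replicate 1 of day 3 (3.8) and replicate 2 of day 10 (4.73) only. Sfrp5 had none.

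Frzb, a WNT-binding protein of articular and growth plate cartilage, had the most regular course of the members. Its covered bases were 1142 and 1112 on day 0, 2821 and 3089 on day 3, then 3455 and 3958 on day 10. Both day 10 values lay above both of day 3, and these above both of day 0. The edge inside the gene moved further than the one before the start (chromosome 2, 80446839 to 80447980 for replicate 1 of day 0, against 80444314 to 80448271 for replicate 2 of day 10), and RUNX2 summits of day 3 lay at −255 bp from the start in both libraries (fold enrichments of 6.06 and 10.1). Among the 27 members marked in all 6 lists, 20 (74.1%) were wider in both libraries of day 3 than in both of day 0, beside 78.8% of all such genes, and 0 were narrower (0.0616%). From day 3 to day 10, Frzb alone was wider (1 of 27; 0.264% of all such genes, or 30 of 11366) and 5 members were narrower (20.9% of all such genes). From day 0 to day 10, 7 were wider (22.3%) and 0 narrower (0.501%). The day 0 peak of replicate 1 was weak, with a fold enrichment of 2.4 and a −log10 q of 1.31 at the end of its list. With a minimum −log10 q of 5, Frzb left the set marked in all 6 lists and 0 members were wider from day 3 to day 10.

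The 250 bases before the Frzb start are shown because Frzb alone widened again by day 10, and they were under H3K4me3 in both libraries already on day 0 (RefSeq, GRCm38.p6, chr2:80447397-80447646, minus strand). They hold a match to the TCF/LEF motif CTTTGA on the other strand, in capitals, beginning at −95, and none to the RUNX motif.
Frzb: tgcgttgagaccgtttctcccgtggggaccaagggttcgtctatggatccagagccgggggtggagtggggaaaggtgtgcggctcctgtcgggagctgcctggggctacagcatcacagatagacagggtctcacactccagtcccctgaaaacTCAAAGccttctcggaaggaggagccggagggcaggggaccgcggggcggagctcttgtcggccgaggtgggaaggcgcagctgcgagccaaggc

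Wif1, encoding a WNT-binding inhibitor of cartilage, had fold enrichments of 5.05 and 9.26 on day 0, 33.2 and 11.2 on day 3, then 8.45 and 13.8 on day 10. The value of 33.2 was the highest of the members in that list. Besides the peak at its start site, Wif1 had a peak deep inside the gene (chromosome 10, 121096054 to 121099179 in replicate 1 of day 3, summit 62262 bp after the start, fold enrichment 15.7), which was also called in replicate 2 of days 3 and 10 and carried RUNX2 in both day 3 libraries (4.91 and 4.01). Sfrp2, a limb mesenchyme inhibitor, had 4.79 and 6.56, 13.3 and 11.5, and 4.58 and 11.7.

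Sfrp4, an inhibitor linked to bone mass, had no day 0 peak. Fold enrichments were 10.0 and 5.97 on day 3 and 4.1 and 6.49 on day 10, with peaks over the end of the span with the lower coordinate on chromosome 13 (19622787 to 19623657 in replicate 1 of day 3, 19622718 to 19623184 in replicate 1 of day 10). The peaks of all 4 libraries overlapped each other. RUNX2 was called there in replicate 2 of day 3 only, with a fold enrichment of 3.83 at 93.4% of the list.

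Dkk1, an inhibitor that binds LRP5 and LRP6, had H3K4me3 on day 10 only, with fold enrichments of 3.59 and 6.24. The peaks overlapped by a few bases (chromosome 19, 30548776 to 30549378 in replicate 1 and 30549362 to 30549865 in replicate 2), with summits at 302 and −171 bp from the start. The replicate 1 peak ranked at 95.1% of its list, and the gain was not called with a minimum −log10 q of 5, with equal numbers of top peaks, or with windows extended by 5 kb. Dkk1 is shown because its peaks straddle the start and because it holds both motifs (RefSeq, GRCm38.p6, chr19:30549497-30549746, minus strand). The capitals mark, in order, a RUNX match on the other strand at −207 and TCF/LEF matches at −174 (other strand) and −117.
Dkk1: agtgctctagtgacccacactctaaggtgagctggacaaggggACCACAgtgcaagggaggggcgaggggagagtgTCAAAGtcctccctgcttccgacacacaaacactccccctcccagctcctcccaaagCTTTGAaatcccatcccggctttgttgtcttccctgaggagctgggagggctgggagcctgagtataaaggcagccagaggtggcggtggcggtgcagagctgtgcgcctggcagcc

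**Figure D2:**
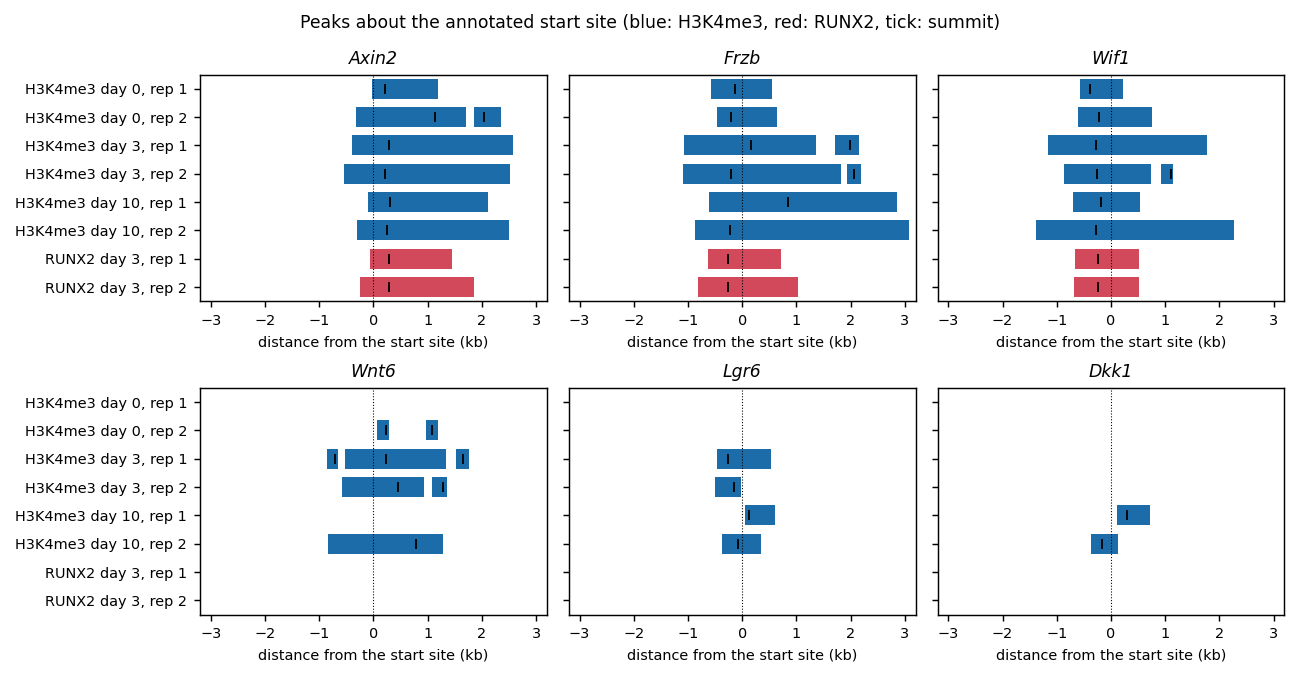
Peaks (bars, ticks at summits) within 3.2 kb of the annotated start of 6 members (x axis, distance in kb) in the 6 H3K4me3 lists (blue) and the RUNX2 lists of day 3 (red). The Frzb bar is longest on day 10 (3455 and 3958 covered bases), Axin2 has a bar in every list, Wnt6 and Lgr6 lack RUNX2, and Dkk1 has bars on day 10 only.

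The nuclear factors and the feedback targets had H3K4me3 in all 6 lists and RUNX2 in both day 3 libraries (8 of 8). Over all genes, 51.9% had H3K4me3 in all 6 lists, and 94.2% of genes marked on day 3 had RUNX2. Ctnnb1, which encodes β-catenin, had fold enrichments of 6.21 and 7.68 on day 0, 24.4 and 13.5 on day 3, then 11.9 and 11.7 on day 10. Tcf7l2, a TCF factor, had the most covered bases of all members on day 3 by the mean of both libraries (10009 and 5725), and 0.705% of marked genes had more. In replicate 2 alone, Wnt5a had more (6451). The covered bases of Tcf7l2 were spread over 8 and 3 peaks. Its longest day 3 peak ran from 55741036 to 55746437 on chromosome 19 (replicate 1), and further peaks lay at another annotated start inside the gene, with summits at 425 and 13 bp. Fold enrichment at Tcf7l2 was 9.47 and 9.65 on day 0, 26.6 and 10.0 on day 3, then 20.1 and 11.2 on day 10.

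Tcf7l1, a TCF factor that mostly represses, had the best RUNX2 rank of the members, 4.47% and 0.629% of the lists. RUNX2 fold enrichments were 6.88 and 17.3, with the summit at the same base in both libraries, 817 bp after the start (chromosome 6, 72787786 to 72789596 in replicate 1). H3K4me3 there had 7.21 and 10.9, 29.6 and 12, and 19.1 and 12.8. Axin2, the scaffold gene that is the classical read-out of β-catenin signalling, came next. Its RUNX2 values were 8.42 and 16.9, with summits 285 bp after the start in both libraries (chromosome 11, 108920291 to 108921802 and 108920102 to 108922207). H3K4me3 at Axin2 had 8.71 and 13.2, 29.0 and 11.2, and 19.5 and 14.8, so that the mark was already called on day 0. The RUNX2 lists of that day held only 108 and 102 peaks over the whole genome, so no order of mark and RUNX2 can be read from them.

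The bases before both starts are shown as the member promoters with the best RUNX2 ranks (RefSeq, GRCm38.p6, chr6:72789046-72789295, minus strand, for Tcf7l1 and chr11:108920099-108920348, plus strand, for Axin2). Neither holds TGNGGT or CTTTGA on either strand, so no base is in capitals, and this says nothing of the bases after the start where the summits lay.
Tcf7l1: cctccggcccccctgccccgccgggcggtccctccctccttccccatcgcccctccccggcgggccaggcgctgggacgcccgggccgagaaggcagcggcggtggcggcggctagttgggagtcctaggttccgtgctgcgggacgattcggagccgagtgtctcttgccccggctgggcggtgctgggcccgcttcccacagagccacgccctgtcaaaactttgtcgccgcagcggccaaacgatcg
Axin2: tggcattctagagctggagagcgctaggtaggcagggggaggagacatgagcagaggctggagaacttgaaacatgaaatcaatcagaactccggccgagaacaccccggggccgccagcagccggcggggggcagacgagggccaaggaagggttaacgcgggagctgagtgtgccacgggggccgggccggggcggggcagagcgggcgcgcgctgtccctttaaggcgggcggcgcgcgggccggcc

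Nkd1 and Nkd2 encode Naked cuticle proteins, which restrain Dishevelled. Nkd1 had RUNX2 fold enrichments of 9.74 and 19.7, the highest of the members in both lists, at chromosome 8, 88521257 to 88522547 in replicate 1. H3K4me3 had 5.44 and 10.5, 21.9 and 15.4, and 13.5 and 17.2. The peaks lay at the 5′ end of the RefSeq span and at −5875 bp from the start in the promoter table, so no sequence is shown. Nkd2 had H3K4me3 of 4.53 and 7.28, 20.4 and 6.98, and 12.1 and 10.5, and RUNX2 of 8.9 and 9.66. Lef1, Tcf7 and Ctnnb1 had RUNX2 values of 5.07 and 10.3, 8.56 and 13.6, and 4.79 and 18.6.

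RUNX2 peaks were called at 0 of 54 members on day 0 and on day 10 in both libraries (0.0274% and 0.0183% of all genes), and in no single library of these days either (0.0366% and 0.0457% of all genes on day 0, 0.0457% and 0.0228% on day 10). On day 3 there were 37 of 54 (68.5%; all genes 58.4%), with 37 in replicate 1 and 38 in replicate 2 (59.6% and 58.6% of all genes). By role these were 8 of 17 ligands, 12 of 13 receptors, 4 of 7 R-spondin and LGR genes, 5 of 9 secreted inhibitors and all 8 nuclear factors and feedback targets. RUNX2 was called at 37 of the 47 members with H3K4me3 on day 3 (78.7%), below the 94.2% of all genes with the mark. It was called at 0 of 7 without the mark (0.999% of all such genes).

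The 10 marked members without RUNX2 were Wnt1, Wnt2, Wnt3, Wnt3a, Wnt6, Wnt7b, Wnt9b, Wnt10a, Lgr6 and Sfrp4. Their H3K4me3 peaks were low in the lists. When all marked genes were ordered by the mean rank of their strongest day 3 H3K4me3 peak and divided into 5 bins of equal size, RUNX2 was found at 99.8, 99.9, 99.7 and 99.5% of genes in the upper 4 bins and at 72.3% in the last. Among members, RUNX2 was found at 6 of 6, 7 of 7, 4 of 4 and 7 of 7 in the upper 4 bins. In the last bin, which holds all 10, it was found at 13 of 23, a lower share than over all genes of that bin. The median rank was 28.4% for members with RUNX2 and 61.2% (46.9 to 85.0%) for those without, and 57.1% for the ligands as a group against 22.7% for all marked genes. Of the 47 marked members, 23 were in the last bin. Whether the rank of the H3K4me3 peaks accounts for the lower RUNX2 share of the WNT genes was not tested.

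**Figure D3:**
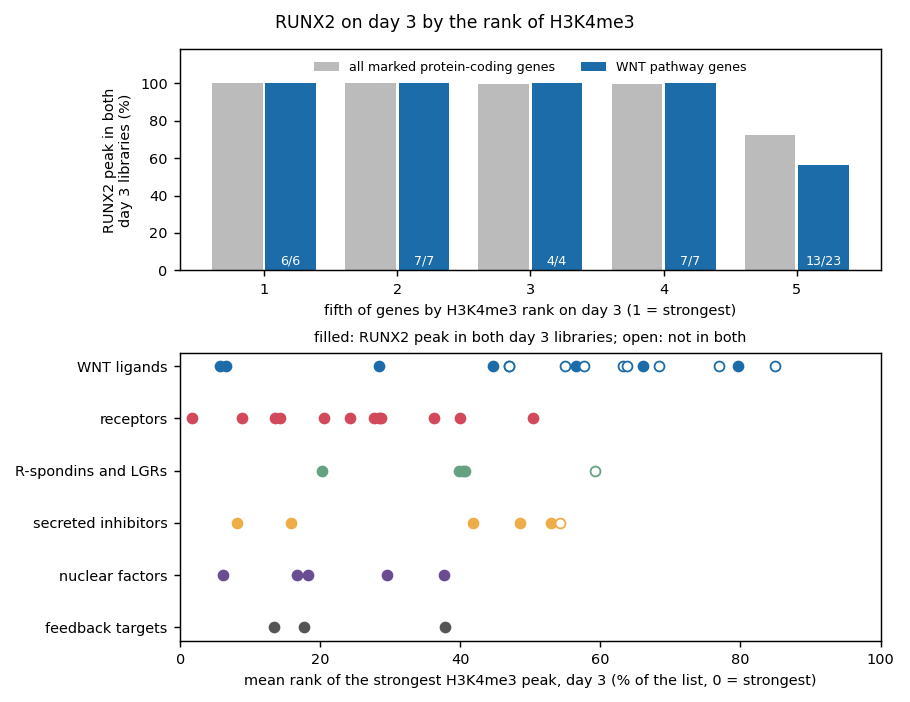
Share of genes with RUNX2 on day 3 (y axis, percent) in 5 equal bins of H3K4me3 rank (x axis, strongest first) for all marked genes, with the members of each bin by role. The share falls from 99.5 to 72.3% from bin 4 to bin 5, where 13 of 23 members had RUNX2.

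Where RUNX2 was called, it lay under H3K4me3. Of the 50 stretches at members that had a RUNX2 peak in both day 3 libraries, 49 (98.0%, exact Clopper-Pearson 95% interval 89.4 to 99.9%) overlapped a stretch with H3K4me3 in both libraries, beside 97.6% of all 17401. The exception lay at Dkk3, a divergent member of the DKK family. In the other direction, 45 of 74 H3K4me3 stretches at members overlapped RUNX2 (60.8%, 48.8 to 72.0%), beside 74.6% of all 21011. These intervals cover counting error only and treat stretches as independent. The summit of the strongest RUNX2 peak lay within 1000 bp of an annotated start at 22 of 25 members with a start in the promoter table, at a median distance of 332 bp in replicate 1. The same share was not computed for all genes. By a different measure, 59.7% and 64.1% of all day 3 RUNX2 summits lay within 1 kb of a gene end.

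Windows from 250 bases before to 50 after an annotated start gave a stricter view, for the 39 members with an entry. H3K4me3 covered such a window in both libraries at 11 members on day 0 (28.2%; 44.3% of all genes with an entry), 26 on day 3 (66.7%; 55.1%) and 21 on day 10 (53.8%; 52.1%). RUNX2 covered one at 20 members on day 3 (51.3%; 52.0%), which is the background share. From day 0 to day 3, 4 members gained the mark over a start (Lgr6, Wnt2, Wnt4 and Wnt6; background 2.97%). From day 3 to day 10, 1 lost it (Wnt2; background 0.292%) and 0 gained it (background 0.0686%), and from day 0 to day 10, 1 gained it (Fzd5; background 1.5%). Fzd5, a receptor gene, had peaks in all 6 lists, but those of day 0 did not reach its start-site window.

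The RUNX motif TGNGGT, searched on both strands in the 300 bases of the promoter table, was found in 16 of 48 member promoters (33.3%), beside 44.1% of 21263 protein-coding promoters. It was found in 5 of 22 member promoters under RUNX2 in both day 3 libraries (22.7%) and in 10 of 21 without RUNX2 in either (47.6%). For protein-coding genes these shares were 40.8% under RUNX2 and 47.8% without. The TCF/LEF motif CTTTGA was found in 6 of 48 member promoters (12.5%), beside 14.4% of protein-coding promoters. These motifs are short and can share letters where one runs into the other, and a match is a description of the sequence.

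The width of the mark on day 3 differed between roles. Median covered bases at nuclear factors were 4745 and 3153, at receptors 3305.5 and 2399.0 and at R-spondin and LGR genes 1931 and 1520 (replicate 1, then 2). They were 1709 and 1825 at feedback targets, 1429 and 1294 at ligands and 1270 and 1506 at secreted inhibitors, so that the order of these last roles depended on the library. A longer gene has a wider window in which bases can be covered, and the median span was 114061 bp for nuclear factors, 26704 bp for ligands and 5745 bp for receptors. Over all marked members the median of the means of both libraries was 1832.0 on day 0, 2265.0 on day 3 and 2143.8 on day 10, with standard deviations between the 2 library medians of 521.1, 704.3 and 440.5. These medians are over different genes, since 27, 47 and 36 members were marked. Over the 27 members marked in all 6 lists, the median ratio of covered bases was 1.50 from day 0 to day 3 and 0.83 from day 3 to day 10, beside 1.43 and 0.85 over all such genes.

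**Figure D4:**
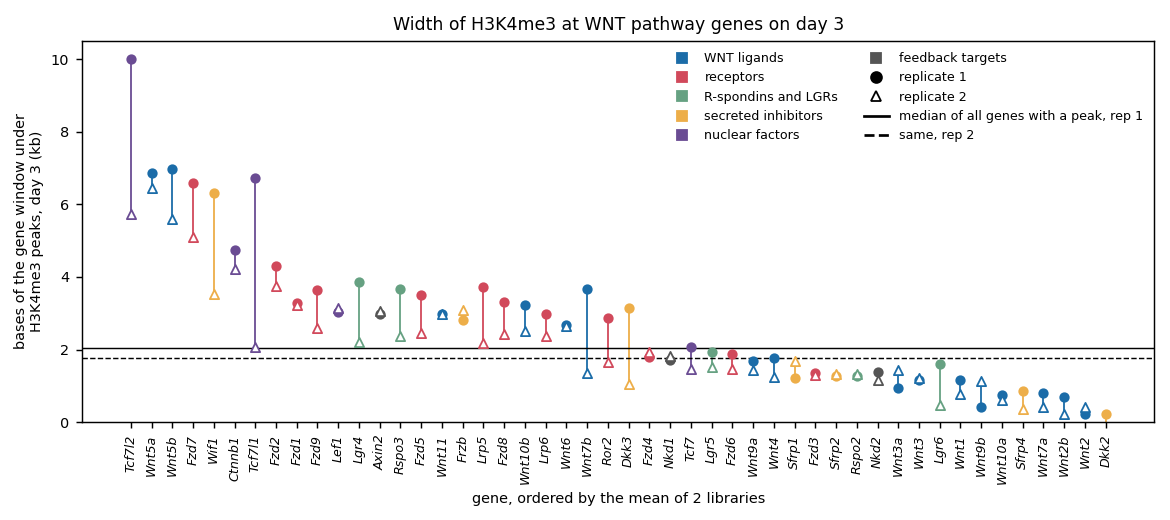
Bases of each member's window covered by H3K4me3 peaks on day 3 (filled circles replicate 1, open triangles replicate 2), with the medians of all genes with a peak as lines (2040 and 1756 bases). Tcf7l2, Wnt5a and Wnt5b are the widest, and most ligands lie under the lines. The bases of Wnt5b include a stretch whose gene was not settled.

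Of a further 47 genes of the pathway, in these and other roles, the marked number over the 3 days was 35, 43 and 41 (all genes 52.2%, 61.6% and 56.8%), with 35 in all 6 lists (51.9%) and 41 under RUNX2 on day 3 (58.4%). All 12 cytoplasmic components, such as Gsk3b and Apc of the β-catenin destruction complex, and all 9 further nuclear cofactors, such as Bcl9 and Tle1, were marked on day 3 and carried RUNX2. Of 9 further ligands and receptors 7 did so, of 6 planar polarity genes 6 were marked and 5 carried RUNX2, and all 3 secretion genes and 4 further target genes had both. Of 4 further secreted inhibitors 2 were marked and 1 carried RUNX2. Celsr1, a planar polarity cadherin, was the only one of the 47 to gain (day 0 to day 3) or lose (day 3 to day 10) a peak, and Celsr1 and Sost, the sclerostin gene of osteocytes, were marked on day 3 without RUNX2. Dkk4, Sostdc1, Wnt8a and Wnt8b had no peak in any list.

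Wls, the carrier that brings WNT proteins to the cell surface, was 1 of 6 genes with a RUNX2 peak in both libraries of day 0 and 1 of 4 on day 10. The peak in question was narrow (151 to 188 bp on these days) and lay at one site on chromosome 3, 159939472 to 159939640 in replicate 1 of day 0, with its summit 99927 bp from an annotated start. It was present in all 6 RUNX2 lists and overlapped a peak of 5 of the 6 H3K4me3 lists. The day 3 RUNX2 libraries differed there, with fold enrichments of 23.3 and 1.64 (−log10 q of 144 and 5.74). What this site represents was not tested. On day 3 another RUNX2 peak of 2151 and 2752 bp lay at the Wls start, with summits at 374 bp in both libraries.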

How the data were processed

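ChIP-seq peak lists of 12 libraries were analysed, and the 2 input libraries were not used here. The aligner was HISAT2 2.2.0 and the peak caller MACS2, after read checks with FastQC and Trim Galore, per the submitters' processing notes. Their settings, duplicate removal and the use of inputs as control were not given in the sources used here. Each list carries the name of 1 library. Per the narrowPeak column order, the deposited lists give each peak's coordinates, score, fold enrichment over local background (a linear ratio), −log10 p and q-values and summit. The deposited score equals 10 times the −log10 q, cut to whole numbers, apart from up to 10 lines a list. The smallest deposited −log10 q was 1.3 to 1.63, so the authors' limit was a q of 0.05. These values depend on each library's depth, which is unknown, and were used only within a list.

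The notes name GRCm39, but the coordinates matched the RefSeq table of GRCm38.p6: 37.9 to 70.2% of H3K4me3 summits lay within 1 kb of a gene end, against 6.12 to 7.99% after a shift by 20 kb. Positions are counted from 1. Overlapping lines were merged, which changed no list. A marked gene had a peak in its window in both libraries of that day. Ranks are by −log10 q within a list, in percent of its length. Covered bases are those of the window under a peak. Sequences come from the RefSeq promoter table, which held 39 of 54 members. Python 3.11.15, pandas 2.3.3, numpy 2.4.6 and scipy 1.17.1 were used, and the calling steps were tested on simulated data.

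Members and gene lists were chosen with earlier results of these data known. Described in full were members gained or lost, members with H3K4me3 and no RUNX2 on day 3 or the opposite, the 3 widest on day 3, the 5 with the best RUNX2 ranks, and members without any peak; Frzb, Fzd9, Wif1 and Wls were picked after their values were seen, and the others are given by role. No test was run between days, since 2 against 2 libraries cannot pass 0.05 in an exact permutation test.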

Additional observations from a re-analysis of the deposited data

How the results depend on the processing

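The counts of RUNX2 peaks at members and their overlap with H3K4me3 on day 3 stayed within 1.5 times the value reported in every alternative tried. The counts that moved were those of H3K4me3. Members marked on day 0 (27) became 44 with a peak in either library, and 27 to 44 when 1 library was left out (44 without replicate 1). Members marked on day 3 (47) became 31 with equal numbers of top peaks. Members gained from day 0 to day 3 (3) became 7 with a −log10 q of at least 5, and 3 to 20 when 1 library was left out (20 without replicate 2 of day 0). Members gained from day 3 to day 10 (1) became 0 with a −log10 q of at least 5, with windows extended by 5 kb or with equally many top peaks, and 3 with a peak in either library, and ranged from 1 to 3 over the libraries left out (3 without replicate 1 of day 10). Members lost from day 3 to day 10 (4) became 2 with windows at the gene ends, 2 with equal numbers of top peaks, and up to 12 without replicate 2 of day 10. Members gained from day 0 to day 10 (3) became 1 with equal numbers (Sfrp1), 6 with a peak in either library, and up to 9 without replicate 2 of day 0; members lost (0) became 3 with a peak in either library or without replicate 1 of day 0.

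In alternatives chosen after seeing the data, using replicate 2 alone on days 0 and 10 gave 44 members marked on day 0, 3 gained between days 3 and 10, and 6 gained and 3 lost over the whole course, and requiring overlapping peaks in both libraries gave 2 lost from day 3 to day 10. The median width of day 0 (1832.0 bases) was 1299.0 without replicate 2 and 1577.5 without replicate 1. Leaving out 1 library moved the members that were wider from day 3 to day 10 (1) to between 1 and 7, those narrower (5) to between 6 and 23, those wider from day 0 to day 10 (7) to between 7 and 24 and narrower (0) to between 0 and 5, and those narrower from day 0 to day 3 (0) to between 0 and 1. At a minimum −log10 q of 5, 0 members were wider and 3 narrower from day 3 to day 10, and with windows extended by 5 kb 3 were narrower. With TGTGGT in place of TGNGGT, the share of promoters with a match fell to 4.17% of members (33.3%) and to 0% of those under RUNX2 (22.7%), and over all genes to 16.8% of promoters (45.8%) and to 10.7% of protein-coding ones under RUNX2 (40.8%). By the rules used, leaving out 1 library can only keep or raise the counts of members marked, gained, lost, wider or narrower. Beyond that, the cause of these shifts was not tested. No paired analysis was possible because no test was run and nothing in the labels ties libraries with the same number to a shared culture or day. Depth limits every absence of a peak.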
